A study of Mus musculus with 3 samples.

Results

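The spleen that received SiO2 and the treatment labelled 3TF-3C (the SiO2-3TF-3C spleen) was compared with the spleen that received SiO2 alone (the SiO2 spleen), gene by gene, over the whole array. A gene entered the comparison where the scanner software marked its brightest probe as well above background on both spleen arrays. These were 16779 of the 20542 genes that could be named from a RefSeq accession. A gene is described by its log2 difference, SiO2-3TF-3C spleen minus SiO2 spleen, after each array had been set to its 75th percentile. The size used throughout is 2-fold, a log2 difference of 1.

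Both spleen samples came from female mice, were collected on day 82 and share the SiO2 treatment, and only the SiO2-3TF-3C spleen had 3TF-3C, a name that the labels do not spell out. The series design names 5 samples pooled in each group, and each group has 1 array. Normal liver of female mice, also on 1 array, is the study's positive control and is given beside the spleens. It is not stated whether the liver was pooled, and the strain and age of the mice are not given in the sources used here. Pooling removes the spread between animals from view, so no test between the samples can be made and no difference has a replicate check. The value after ± is the technical error of a log2 difference, combined from the scanner software's errors of the 2 signals, and it leaves out the animals.

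The spleen filters blood, holds lymphocytes in its white pulp and macrophages in its red pulp, and in mice it also makes red blood cells. Hepatocytes, the main cells of the liver, make most plasma proteins, handle fats, amino acids and foreign compounds, and govern iron supply through hepcidin. Red cell formation is driven by transcription factors such as Gata1, Tal1 and Klf1, which bind short motifs in their target genes. Because RNA came from whole tissue, more cells of a type and more RNA per cell cannot be told apart in any of the values below.

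The arrays were of like quality. Between 77.2% and 81.3% of the 43020 spots were well above background on the 3 arrays, 0 spots were saturated, and replicate spots of a probe had a median log2 standard deviation of 0.0752 to 0.0979. Both spleen samples carried the markers of their labelled tissue. All 5 B cell, 5 T cell, 6 spleen stroma and 5 red pulp macrophage markers were well above background on both, and 0 of them differed by 2-fold. The summed scaled intensity of the B cell markers was 62149 in the SiO2 spleen, 44352 in the SiO2-3TF-3C spleen and 27003 in liver, and that of the T cell markers 16948, 11701 and 7016. The spleen stroma markers summed to 9313, 7235 and 3550, and the red pulp macrophage markers to 46019, 44994 and 31467. All of these markers were also well above background on the liver array. Their presence alone therefore does not set the spleens apart from liver. The 10 hepatocyte markers summed to 2100.2, 92521 and 275317, and the SiO2 spleen had 8 of them well above background.

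The comparison was lopsided towards higher signal in the SiO2-3TF-3C spleen. Of the 16779 genes, 698 (4.16%) were higher by 2-fold or more and 200 (1.19%) lower by as much, so that 898 (5.35%) passed 2-fold in either direction. The imbalance widened with size. At 4-fold there were 333 higher and 13 lower genes, at 16-fold 142 and 0, at 64-fold 78 and 0, and at 256-fold 27 and 0. The median over all genes was -0.17, and the middle 90% of genes lay between -0.70 and 0.84. Technical errors were 0.20 to 0.64, with a median of 0.20. In liver, 592 of the 698 higher genes had a signal at or above that of the SiO2 spleen, and the other 106 had a signal below it. Among all genes measured on both spleen arrays, clone and predicted names left out, 8897 had a liver signal below it. The SiO2 spleen signal is a term of both the split and the difference. A signal read too low by chance thus favours both a higher call and a place at or above, so part of the split is built in.

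**Figure D1:**
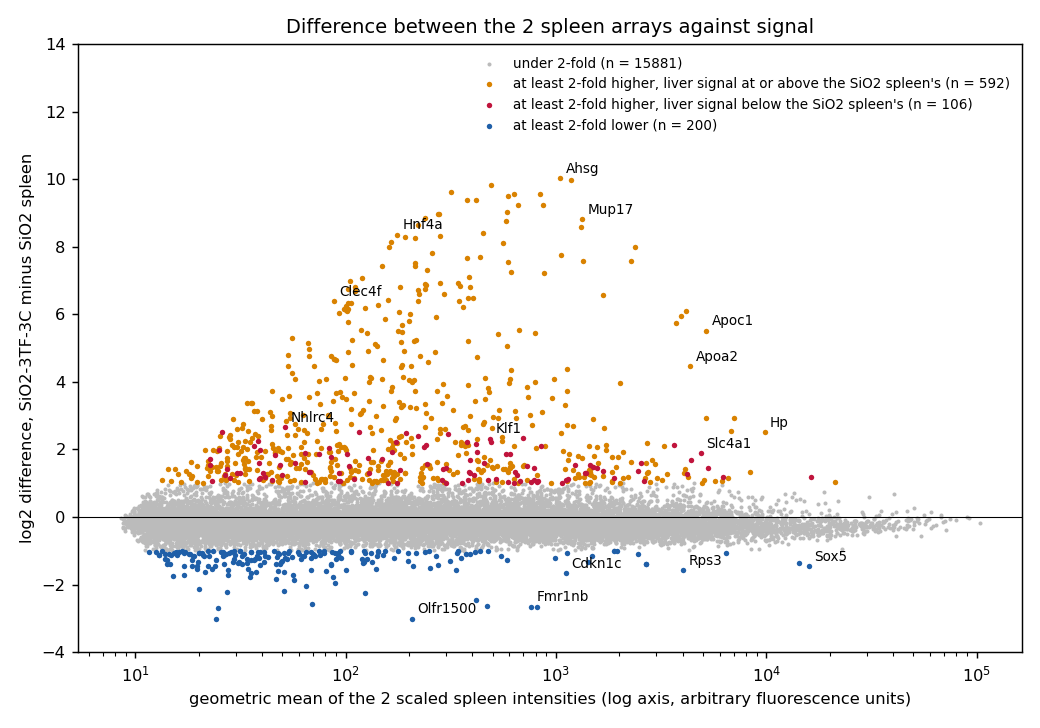
Each point is 1 of the 16779 genes. The x axis is the geometric mean of the scaled intensities on the 2 spleen arrays (log axis) and the y axis the log2 difference, SiO2-3TF-3C minus SiO2 spleen. The 698 higher genes reach 10.03 (Ahsg), those whose liver signal lies below the SiO2 spleen's (106, dark red) stay at or under 2.65 among the genes named by the rule, and the 200 lower genes reach -3.01 (Olfr1500).

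Scaled intensity below means the processed signal after all 3 arrays were brought to the same 75th percentile, that of the SiO2 spleen, and 3 intensities in a row are always given in the order SiO2 spleen, SiO2-3TF-3C spleen, liver. Genes differ in the brightness of their probes, so single intensities were compared between samples and not between genes. The sums over marker lists do add genes, so they mostly follow the members with the brightest probes. Most of the genes that passed 2-fold upwards were dim in the SiO2 spleen. Of 1555 genes under 20 there, 10.03% were higher and 0.322% lower. The higher share was 7.71% from 20 to 50, 5.36% from 50 to 200, 2.90% from 200 to 1000, 1.26% from 1000 to 5000, and 0.236% of the 1269 genes at 5000 or more. The lower share was largest in the classes from 20 to 50 (2.56%) and from 50 to 200 (2.46%). These classes use the SiO2 spleen signal, which is also a term of the difference, so a signal read too low by chance enters a low class with a raised difference.

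**Figure D2:**
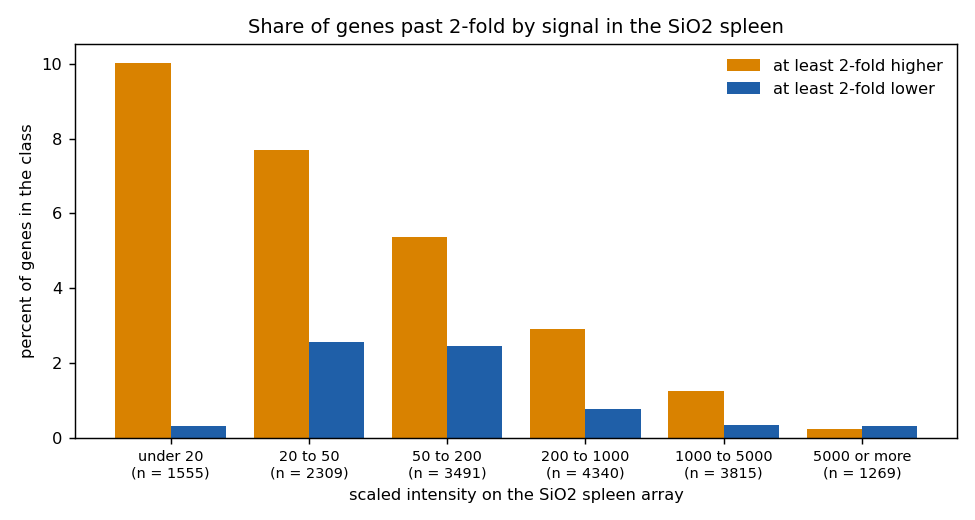
Bars give the percent of genes at least 2-fold higher (orange) or lower (blue) in the SiO2-3TF-3C spleen, in 6 classes of scaled intensity on the SiO2 spleen array. The n of each class is under its bar. The higher share goes from 10.03% in the dimmest to 0.236% in the brightest class.

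The 3 genes at 5000 or more in the SiO2 spleen and still 2-fold higher were Trf, Slpi and Phyh. Trf encodes transferrin, the iron carrier of plasma, and its intensities were 14767, 30303 and 49051 (log2 difference 1.04 ± 0.20, with 1.78 by its other probe). Slpi, an inhibitor of leukocyte proteases, read 10826, 24462 and 4331, a difference of 1.18 ± 0.20, and so had less signal in liver than in either spleen. Phyh, the peroxisomal enzyme that starts the breakdown of phytanic acid, read 5250.3, 13202 and 42504 (1.33 ± 0.20). Slpi and Trf were chosen after their values were seen.

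Other probes of the same gene gave a partial check, since they measure the same pools through different sequence. Of the 698 higher genes, 133 had another measured probe, and in 74 of these (55.6%) the other probes passed 2-fold as well by their median, while 113 had the same sign. Of the 200 lower genes, 26 had one, of which 3 (11.5%) passed 2-fold and 24 had the same sign. The median over the other probes was 1.17 for the higher genes, against 1.87 by the brightest probe, and -0.30 for the lower genes, against -1.38. The brightest probe chose these genes, so some shrinkage in the others is built in. Over all 4279 genes with several measured probes, the probes differed by over 1 on the log2 scale in 169 (3.95%).

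**Figure D3:**
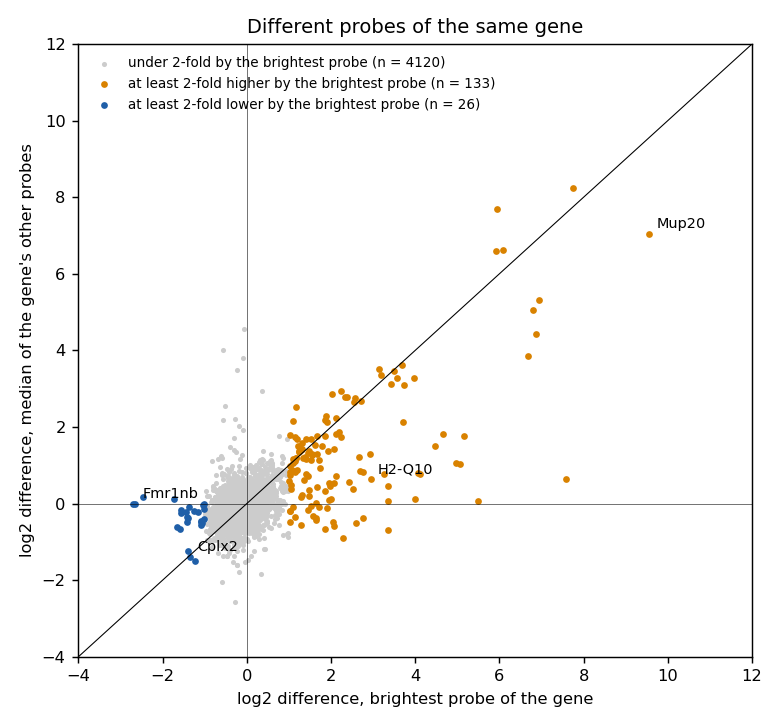
Each point is a gene with more than 1 measured probe. The x axis is the log2 difference, SiO2-3TF-3C minus SiO2 spleen, by its brightest probe and the y axis the median of its other probes, with the diagonal marking equality. Of the 133 higher genes (orange) 74 are also past 2-fold on the y axis, and of the 26 lower genes (blue) 3 are.

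The 20 highest differences, from 8.40 to 10.03, belonged to genes of the hepatocyte. Ahsg encodes fetuin-A, a plasma protein that binds calcium phosphate, and its intensities were 32.3, 33821 and 58586, a difference of 10.03 ± 0.22. Albumin (Alb) read 37.2, 37669 and 44240.5 (9.99 ± 0.22), so that its signal in the SiO2-3TF-3C spleen stood close to that of the liver array. Kng1, the kininogen from which bradykinin is cut, read 16.3, 14828 and 43772 (9.83 ± 0.30). Among the 20 were 6 major urinary proteins, carriers of scent molecules.

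Mup20, the male pheromone darcin, read 30.6, 23154 and 33269.6 (9.56 ± 0.22, 7.05 by its other probe), although all the mice were labelled female. Mup17 read 63, 28309 and 59249 and Mup18 67.4, 25819 and 33908. Mup genes are near-identical copies, and a probe for one may bind the others, so the members are uncertain one by one. Apoc3, an inhibitor of triglyceride clearance, read 35.3, 21298 and 43720.3, and Apoh, a phospholipid-binding plasma protein, 16.1, 10811 and 30000.1. The zymogen genes were also among the 20, with F2 (prothrombin) at 24.4, 8242 and 21502 and Plg (plasminogen) at 11.1, 4423 and 28722. The enzymes were Bhmt, Cyp2f2 and Ces3a, of which Bhmt, which rebuilds methionine from homocysteine, read 26.9, 16337 and 39882. All 20 genes had more signal in liver than in the SiO2-3TF-3C spleen.

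Some genes had ample signal in the SiO2 spleen already. Among the 5840 genes above the 75th percentile on both spleen arrays, 88 were at least 2-fold higher and 13 lower. The highest was Apoc1, an apolipoprotein, at 766, 34928 and 70693 (5.51 ± 0.20), followed by Apoa2, the second main protein of high density lipoprotein, at 929, 20456 and 73762 (4.46 ± 0.20). H2-Q10, a class I histocompatibility gene whose product is secreted by liver, read 2535, 19476 and 42116 (2.94 ± 0.20), with 0.65 by its other probe. The class I genes are close relatives, so that its probes may bind others of them. Haptoglobin (Hp), which binds free haemoglobin, read 4106, 23494 and 79565 (2.52 ± 0.20), and ceruloplasmin (Cp), the copper-carrying ferroxidase, 1569, 6728 and 44979.6 (2.10 ± 0.20). Mgst1, a membrane glutathione transferase, read 2808, 16471 and 34806 (2.55 ± 0.20, 2.66 by its other probe), and Aldh1a1, which makes retinoic acid, 682, 4209 and 25445 (2.62 ± 0.20). The matrix gene Col18a1, source of endostatin, was also in this set at 768, 3206 and 24121 (2.06 ± 0.20), as was Wfdc21 at 1071, 4041 and 23268 (1.92 ± 0.20). Rhd, a red cell membrane protein, was the 1 gene of the 15 with less signal in liver than in the SiO2 spleen.

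A further 583 genes were well above background in the SiO2-3TF-3C spleen alone. Their fold is a lower bound, since the dim side was raised, where needed, to the lowest signal on its array that was well above background. Of these, 217 were at least 2-fold and 99 at least 16-fold higher. Fgg, a fibrinogen chain, read 7.43, 14149 and 42383 and was at least 1639-fold higher. The cytochrome Cyp2a12 read 2.76, 8794 and 29852 (at least 1019-fold). In the other direction 319 genes were well above background only without 3TF-3C, of which 57 were at least 2-fold and 0 at least 16-fold lower. Ntsr2, a neurotensin receptor, had the highest of these bounds (at least 4.75-fold), at 36.6, 7.67 and 11.5, and the muscle genes Casq1 and Myh4 had at least 4.20-fold and 4.17-fold.

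Some of the higher genes lay side by side in the genome. When the measured genes were ordered along the chromosomes, 20 runs of at least 3 neighbours held only genes at least 2-fold higher. They took in 72 of the 698 higher genes. There were 0 runs of lower genes, but these were also fewer (1.19% of all genes against 4.16%), which makes a run less likely. The longest run was 10 Mup genes, from 5.87 to 9.56 with a median of 8.67. The next were 5 Serpina genes (Serpina1d, Serpina1a, Serpina1c, Serpina1e and Serpina11; median 5.95), which include the alpha-1-antitrypsin copies. Ahsg, Fetub, Hrg and Kng1, relatives with cystatin-type domains, formed a run of 4 (5.22 to 10.03). Runs of 4 were also formed by Cyp3a genes (4.79 to 7.99) and by the serum amyloid A genes Saa3, Saa4, Saa1 and Saa2 (1.03 to 7.06). Itih4, Itih3 and Itih1, heavy chains of the inter-alpha-trypsin inhibitors, ran from 4.06 to 6.80, and Orm1, Orm3 and Orm2, the orosomucoids, from 3.37 to 5.13. Most runs are tandem copies of 1 family, which can share probe signal, so neighbours are not independent counts.

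A run of 3 carbonic anhydrase genes was mixed. Car3 read 29.8, 2894 and 33233 (6.60 ± 0.24), with its highest signal in liver. Its neighbours Car1 at 248, 618 and 152 (1.32 ± 0.20) and Car2 at 2448, 7865 and 899 (1.68 ± 0.20) had their lowest signal there. Car1 and Car2 are the carbonic anhydrases of red cells, and Car3 is known from muscle, fat and liver.

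Gene families differed in their counts. All 10 measured Mup genes and 8 of 11 carboxylesterases were at least 2-fold higher, as were 32 of 70 cytochromes P450, with 1 lower. Solute carriers had 31 of 306 higher and 2 lower, with a median of -0.11. Zinc finger (Zfp) genes had 0 of 353 higher and 1 lower, with a median of -0.31, and ribosomal protein genes 0 of 81 higher and 1 lower (-0.26). Odorant receptors had 4 of 394 higher and 8 lower. Protein-coding genes as a whole had 686 of 16151 higher and 180 lower, and long non-coding RNAs 9 of 480 higher and 17 lower, with a median of -0.27.

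The next results come from 65 lists of genes by role, outside the classical hepatocyte functions where possible. They hold 1688 measured genes, of which 141 were at least 2-fold higher and 13 lower, beside 4.16% and 1.19% over all genes. At that background, 1 or 2 higher members in a list of about 30 are not a result about the list. In 45 lists at least 1 member was higher, in 11 at least 1 was lower, and in 17 none passed 2-fold. The median of 41 lists lay above that of all genes (-0.17).

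**Figure D4:**
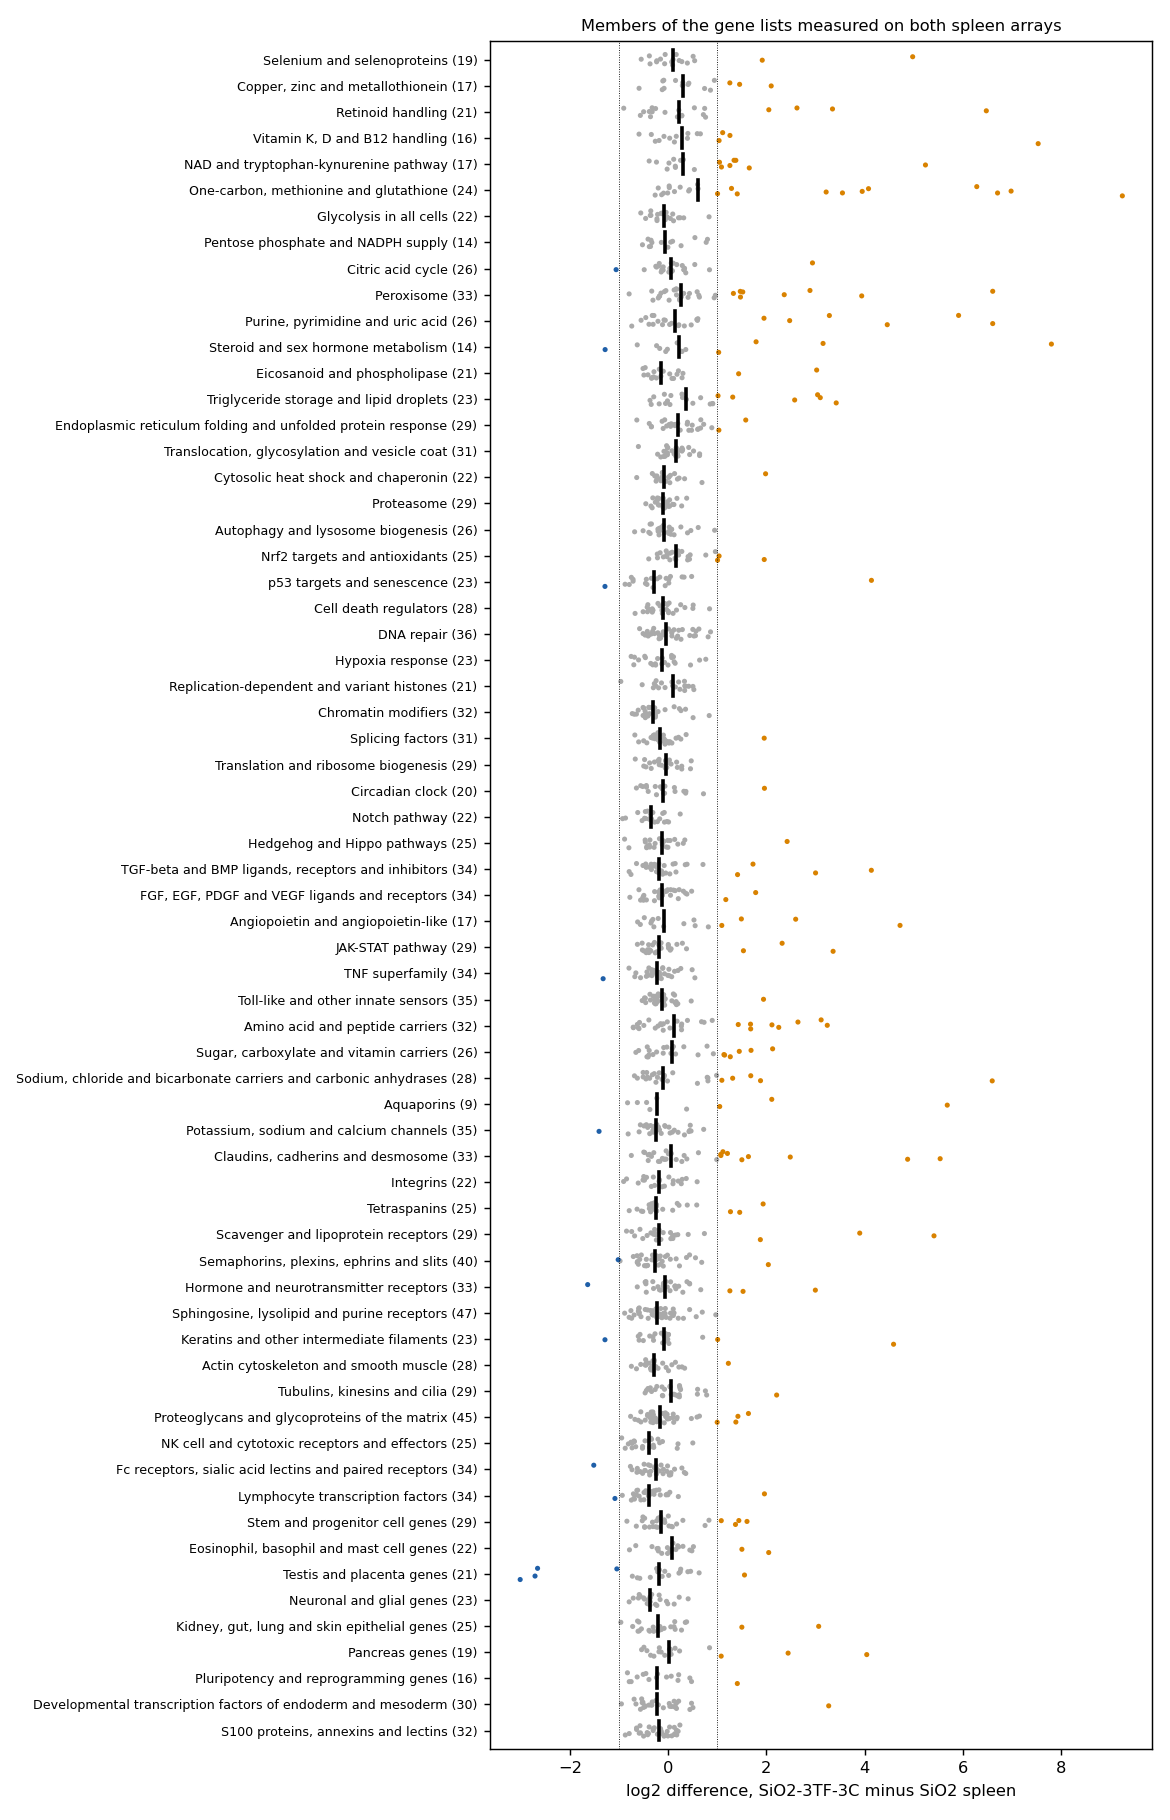
Each row is a gene list, with the number of its members measured on both spleen arrays in brackets, and each point is a member at its log2 difference, SiO2-3TF-3C minus SiO2 spleen. Orange and blue points are at least 2-fold higher and lower, the black bar is the list median, and dotted lines mark 2-fold. One-carbon genes have the most higher members (11 of 24), and proteasome and Notch genes have 0.

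Enzymes that handle one-carbon units, methionine and sulphur were the list with the most higher members. Of 24 measured, 11 were higher by 2-fold or more and 0 lower, with a median of 0.61. Cth, which makes cysteine from cystathionine, read 9.38, 1187 and 7748 (6.98 ± 0.34), and Cbs, the enzyme before it, 216, 2526 and 29466 (3.55 ± 0.20). Cdo1, which oxidises cysteine, read 21.6, 2255 and 14080.0 (6.71 ± 0.24). Gnmt, which uses up surplus S-adenosylmethionine, read 151, 2344 and 26239 (3.95 ± 0.20), and Mat1a, the liver enzyme that makes it, was at least 387-fold higher. The folate enzymes Ftcd and Aldh1l1 differed by 6.29 ± 0.29 and 4.08 ± 0.20, and Gclm, a subunit of the enzyme that starts glutathione synthesis in most cells, by 1.01 ± 0.20.

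Vitamin and metal handling showed a few high members each. In the NAD and tryptophan list 7 of 17 measured genes passed 2-fold upwards and 0 downwards, with a median of 0.31. Its members include Tdo2, which opens the tryptophan ring, at 17.4, 659 and 5265 (5.24 ± 0.26), and Nnmt, which methylates nicotinamide, at 82.7, 260.3 and 1544 (1.65 ± 0.21). In the retinoid list 4 of 21 measured genes passed 2-fold upwards and 0 downwards, with a median of 0.22, led by the alcohol dehydrogenase Adh1 at 42.9, 3827 and 16046 (6.48 ± 0.21), while Rbp4, the plasma carrier of retinol, was at least 1454-fold higher. Gc, the vitamin D carrier, read 43.2, 8020.1 and 26874 (7.54 ± 0.21) in a list of 16 with 4 higher. The other members past 2-fold there were Cyp27a1, Amn and Nqo1, at 1.26, 1.11 and 1.04. The selenium list had 2 of 19 higher, namely the thyroxine deiodinase Dio1 (4.98 ± 0.31, but 1.07 by its other probes) and Sephs2 (1.92 ± 0.21). The copper and zinc list had 3 of 17, namely Cp, the zinc and manganese carrier Slc39a8 (1.46 ± 0.20) and the metallothionein Mt2 (1.26 ± 0.20), which binds zinc and copper.

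Metabolic pathways differed in how many members passed 2-fold. Of 33 peroxisome genes, 8 were higher by 2-fold or more and 0 lower, with a median of 0.27, among them Pipox at 73.7, 1133 and 11149 (3.94 ± 0.21), which oxidises pipecolic acid, and Hacl1 at 554, 4101 and 15601 (2.89 ± 0.20), which shortens branched fatty acids. Purine and pyrimidine genes had 6 of 26 higher, all of them enzymes of breakdown or salvage. Uox, the urate oxidase that mice retain, read 22.5, 2199 and 23804 (6.61 ± 0.23), and Urah, the next enzyme, 34.7, 2091 and 24099 (5.92 ± 0.22). The 3 enzymes that degrade uracil and thymine in turn, Dpyd, Dpys and Upb1, differed by 3.28 ± 0.21, 4.46 ± 0.26 and 2.48 ± 0.20, with 1.51 by the other probe of Dpys. Triglyceride storage genes had 6 of 23 higher (median 0.37), led by Mttp, which loads fat onto apolipoprotein B, at 39.6, 425 and 5056 (3.42 ± 0.21), and Dgat2, which makes triglyceride, at 293, 2508 and 20293 (3.10 ± 0.20). Glycolysis had 0 of 22 past 2-fold (median -0.09), the pentose phosphate list 0 of 14 (-0.07) and the citric acid cycle 1 higher and 1 lower of 26. The higher member was pyruvate carboxylase, Pcx, at 192, 1475 and 15187 (2.94 ± 0.20), and the lower one Aco1, the cytosolic aconitase that also senses iron, at 28.9, 13.9 and 27.1 (-1.06 ± 0.28).

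Steroid enzymes had 4 of 14 higher and 1 lower. Akr1c6, a liver hydroxysteroid dehydrogenase, read 17.2, 3837 and 31512 (7.80 ± 0.27), and Hsd11b1, which reactivates glucocorticoid, 1292, 2639 and 14373 (1.03 ± 0.20). The others were Srd5a1 at 3.16 ± 0.21 and Hsd3b7 at 1.79 ± 0.20, and the lower member was the adrenal gene Cyp11b1 at 57.3, 23.6 and 31.8 (-1.28 ± 0.23). A further 8 members were well above background in the SiO2-3TF-3C spleen alone, among them Sult2a1 (at least 116-fold) and Hsd3b3 (at least 75.4-fold).

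Lists for the general machinery of the cell had few or no members past 2-fold. The lists for the proteasome (29 genes), protein translocation and glycosylation (31), autophagy (26), cell death (28), DNA repair (36), hypoxia (23), histones (21), chromatin modifiers (32) and translation (29) had 0 members past 2-fold in either direction. Their medians ran from -0.32 for chromatin modifiers to 0.16 for translocation and glycosylation. Over all genes the median difference was -0.17 and its 75th percentile 0.08. The medians for translocation and glycosylation and for histones (0.09) lay above that percentile. Folding genes of the endoplasmic reticulum had a median of 0.20, also above that percentile, with 2 of 29 higher. These were the chaperone calreticulin (Calr) at 1707, 5110.5 and 10805 (1.58 ± 0.20) and Derl3, part of the disposal route for misfolded proteins, at 531, 1088 and 331 (1.03 ± 0.20). Derl3 is also high in plasma cells and was lowest in liver. The nuclear lamina genes differed in sign, with Lmna at 974, 1961 and 1569 (1.01 ± 0.20) and Lmnb1 at 915, 376 and 49.5 (-1.28 ± 0.20).

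Signalling lists were mostly flat, and the members past 2-fold were mainly receptors and hormones of the liver. Of 22 Notch genes none passed 2-fold (median -0.35), nor did any of 22 integrins (-0.18) or of 47 lysolipid, sphingosine and purine receptors (-0.23). The JAK-STAT list had 3 of 29 higher, all cytokine-type receptors. The growth hormone receptor (Ghr) read 188, 939.6 and 6949 (2.32 ± 0.20, 2.79 by its other probe), and the prolactin receptor (Prlr) 89.4, 918 and 7722 (3.36 ± 0.21, but 0.46 by its other probe). The erythropoietin receptor (Epor) read 850.0, 2462 and 545 (1.53 ± 0.20), with its lowest signal in liver. The glucagon receptor (Gcgr) read 138, 1103 and 11566 (3.00 ± 0.21), and the epidermal growth factor receptor (Egfr) 151, 341 and 7814 (1.18 ± 0.21, 2.51 by its other probes). Klb, which liver cells need to sense FGF21, differed by 1.78 ± 0.25, and Gdf2, the ligand BMP9, by 3.00 ± 0.26. Ankrd1, a target of the Hippo pathway, read 12.1, 65.1 and 14.9 (2.42 ± 0.30) and was thus not high in liver. It was the 1 higher of 25 Hedgehog and Hippo genes, with 0 lower and a median of -0.12. In the same list Ccn1, Ccn2 and Tead2 differed by -0.80 ± 0.20, -0.46 ± 0.20 and -0.89 ± 0.20. The TNF superfamily had 0 of 34 higher and 1 lower, Tnfsf18 at 77.8, 31.1 and 21.4 (-1.32 ± 0.22), a ligand for a TNF-family receptor found on T cells.

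Some iron genes, though not all, were higher. Hepcidin (Hamp), the hormone that closes the iron exporter, read 7.7, 2437 and 31157 and was at least 282-fold higher, and its copy Hamp2 read 44.4, 783 and 7589.7 (4.14 ± 0.21). The second transferrin receptor (Tfr2), an iron sensor of hepatocytes and red cell precursors, read 351, 3477 and 26525 (3.31 ± 0.20). Tfrc, the receptor by which red cell precursors take up iron, read 900.1, 2489 and 407 (1.47 ± 0.20, 1.36 by its other probes), so it too was higher, with its lowest signal in liver. Erfe, the red cell hormone that represses hepcidin, read 12.6, 50.1 and 11.5 (1.99 ± 0.32), but its other probe gave 0.12. Slc40a1, the iron exporter itself, stood at 0.05 ± 0.20, and Slc39a14, a zinc and iron carrier, at 0.86 ± 0.20, while Aco1 was lower, as given above. These genes were grouped here after their values were seen.

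Carriers and junction proteins held further members past 2-fold. Amino acid carriers had 8 of 32 higher, among them Slc38a3, which takes up glutamine in liver, at 65.5, 619.7 and 10029 (3.24 ± 0.21), and Slc6a13, a carrier of taurine and GABA, at 199, 1243 and 13089.9 (2.64 ± 0.20). Slc38a5, another glutamine carrier, read 407, 1762 and 148 (2.11 ± 0.20) with less signal in liver than in the SiO2 spleen. Sugar and vitamin carriers had 6 of 26 higher, the largest being Slc2a4, the insulin-regulated glucose carrier of muscle and fat, at 115, 503 and 48.8 (2.13 ± 0.21), again lowest in liver. Slc2a2, the glucose carrier of liver, was at least 58.9-fold higher. Among claudin, cadherin and desmosome genes 9 of 33 measured genes passed 2-fold upwards and 0 downwards, with a median of 0.06. The gap junction genes Gjb1 and Gjb2 read 98.3, 4571 and 30914 (5.54 ± 0.21) and 49.3, 1450.5 and 20473 (4.88 ± 0.21), and E-cadherin (Cdh1) 92.3, 287 and 1661 (1.64 ± 0.21). Epcam, an epithelial adhesion molecule, read 74.7, 162 and 27.6 (1.12 ± 0.21), with less signal in liver than in either spleen. Aquaporins had 3 of 9 higher, namely Aqp8 (5.68 ± 0.23), Aqp11 (2.11 ± 0.21, 0.73 by its other probe) and the red cell and endothelial water channel Aqp1 (1.05 ± 0.20). The aquaporin median of -0.23 became 0.06 with normexp background correction and 0.35 with a gene's probes averaged.

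Lists of genes of other organs and of early development differed in their counts. The pancreas list had 3 of 19 higher, namely the amylases Amy1 (4.05 ± 0.21), which liver also makes, and Amy2a5 (2.44 ± 0.28), and Bhlha15 (1.08 ± 0.20), a factor of secretory cells that was lowest in liver. Testis and placenta genes had 1 of 21 higher, Oosp1 (1.56 ± 0.21), and 4 lower, the most of any of the 65 lists, with a median of -0.18. The lower ones were Tex11 (-1.04 ± 0.23) and Cts7, Tcl1b4 and Fmr1nb, which are among the 20 lowest genes described below and were already known to be low when the list was written, so that the count is no support. Of 23 neuronal and glial genes 0 passed 2-fold (median -0.36). Among developmental factors of endoderm and mesoderm 1 of 30 measured genes passed 2-fold upwards and 0 downwards, with a median of -0.22. The 1 member was Onecut2, a liver and pancreas factor, at 48.5, 468 and 6088 (3.27 ± 0.21), and Foxa2 and Foxa3, factors that open liver genes, were at least 17.3-fold and 11.3-fold higher. The pluripotency list had 1 of 16 higher, Dppa2 at 179, 475 and 40.9 (1.41 ± 0.20), and a median of -0.22 that was 0.05 in the authors' deposited values. The 5 markers of the mesothelium, the sheet that covers the organ, had a summed intensity of 1087, 892 and 554. Of them, 2 were well above background in the SiO2 spleen and 3 with 3TF-3C, so the sums include markers that were not. Most of the sum came from the probe of Wt1, a transcription factor, at 1049, 723 and 343 (-0.54 ± 0.20). Msln, the other marker measured on both spleen arrays, passed 2-fold at 19.5, 139.8 and 117 (2.84 ± 0.24). Krt19 was well above background with 3TF-3C but not in the SiO2 spleen.

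Genes with less signal in liver than in the SiO2 spleen can be read apart from the hepatocyte genes. Of the 8897 genes whose liver signal lay below the SiO2 spleen's, clone and predicted names left out, 105 passed 2-fold upwards. That is a smaller share than over all genes, where 698 of 16779 (4.16%) did. The SiO2 spleen signal is a term of both this choice of genes and the difference. The 15 highest included known genes of the red cell. Kel, a blood group protein of the red cell membrane, read 309, 1558 and 122 (2.33 ± 0.20), and Epb42, which ties the membrane to its skeleton, 96.5, 507 and 34.5 (2.39 ± 0.21). Klf1, the factor that switches on adult globin, read 218, 1085 and 178 (2.31 ± 0.20). Add2 and Tmod1, which cap the actin of the red cell skeleton, read 131, 712 and 46.8 (2.45 ± 0.21) and 17.5, 83.7 and 4.94 (2.26 ± 0.29). Rhd, the Rhesus protein, read 1754, 7642 and 552 (2.12 ± 0.20). Trim10, a RING finger protein of red cell precursors, read 228, 1061 and 74.6 (2.22 ± 0.20).

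The 15 also held the claudin Cldn13 at 48.5, 275 and 20.1 (2.50 ± 0.21) and the butyrophilin relative Btnl10 at 81.9, 460.2 and 19 (2.49 ± 0.21). Further ones were Nhlrc4 at 20.6, 129 and 5.23 (2.65 ± 0.24), Spag6 at 10.8, 61.7 and 4.41 (2.52 ± 0.32), the cilium gene Rsph1 at 175, 810.0 and 59.2 (2.21 ± 0.20), Apol11b at 197, 881 and 96.7 (2.17 ± 0.20) and Slc2a4. Spag6, a sperm tail protein, gave 0.39 by its other probe. Nhlrc4, Spag6 and Tmod1 were not well above background in liver.

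**Figure D5:**
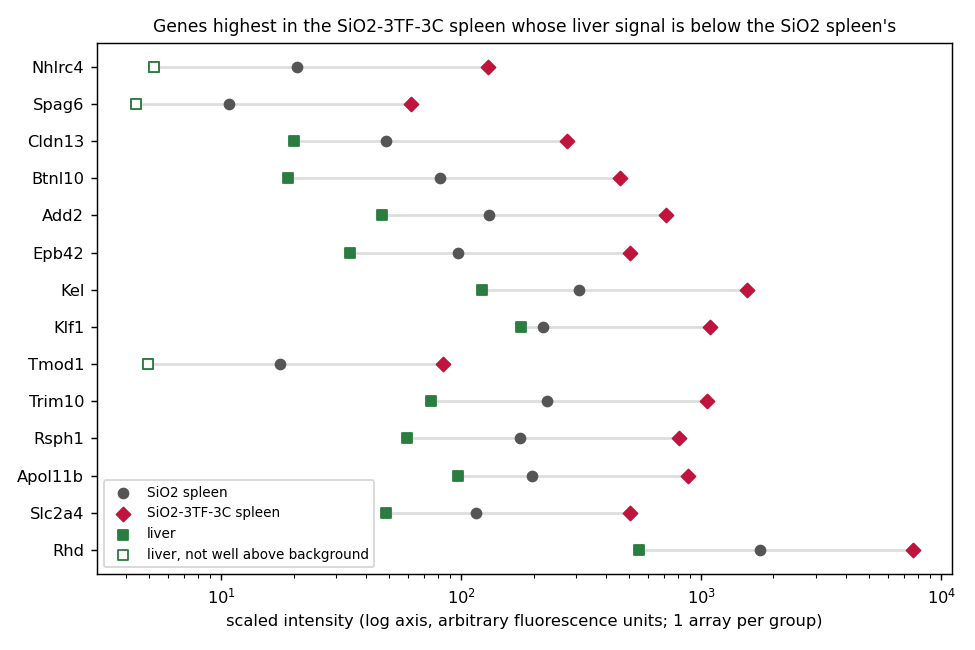
Scaled intensity (log axis) of the genes described above, from the 15 with the highest difference among those whose liver signal lies below the SiO2 spleen's, with 1 array per group. Dots are the SiO2 spleen, diamonds the SiO2-3TF-3C spleen and squares the liver, open where not well above background. Every diamond is right of its dot, by 2.12 (Rhd) to 2.65 (Nhlrc4) on the log2 scale, and every square is left of it, as the choice of genes fixed.

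The erythroid markers as a list summed to 7394, 13597 and 3528, with 4 of 5 at least 2-fold higher and a median difference of 2.31. Most of that sum came from the probe of Alas2, the first haem enzyme of red cells, at 6689, 10074 and 3163 (0.59 ± 0.20). Further red cell genes were picked after their values were seen, and not all of them passed 2-fold. Slc4a1, the anion exchanger band 3, read 2550.1, 9403 and 951 (1.88 ± 0.20). The factors Gata1, Tal1, Gfi1b and Nfe2 read 1037, 2685 and 331 (1.37 ± 0.20), 479, 1301 and 209 (1.44 ± 0.20), 261, 796 and 85.2 (1.61 ± 0.20) and 770.0, 1631 and 372 (1.08 ± 0.20). These were the 4 higher of 29 members in the stem and progenitor list, whose median was -0.15. Redrum, a long non-coding RNA of red cell precursors, read 115, 484 and 61.5 (2.07 ± 0.21). Ermap, a red cell membrane protein, gave -0.08 ± 0.20 by its brightest probe but 1.93 by its other probes, and Sptb, a red cell skeleton gene, 0.70 ± 0.30. The globin genes were close to even, with Hba-a1 at 39396, 43489 and 29321 (0.14 ± 0.20) and Hbb-bt at 34111, 29053 and 28291 (-0.23 ± 0.20). The labels' extraction protocol removes globin RNA and lyses red and white cells separately, and the part of either step in these values was not tested.

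Promoter windows show what the higher genes carry ahead of their start. The windows are the 250 bases before the gene's start in RefSeq on GRCm38.p6, whereas the arrays were designed on mm9, and 5 motifs were searched on both strands. Binding sites of the red cell factor Gata1 and its relatives were searched as AGATAA, sites of HNF4 as CAAAGTCC and sites of C/EBP proteins as TTGCGCAA. The CACCC box, the kind that Klf1 binds, was searched as CCACACCC, and the box near the start of many genes that is bound by the general factor TBP as TATAAA. Windows were found for 11 of the 15 genes above, of which 5 held the GATA motif and 1 the TATA box, and for 14 of the 20 highest genes, of which 0 held the GATA motif and 1 the TATA box. The other 3 motifs were in 0 of these windows. Only exact matches were counted, and close variants were not. The windows of Mup2, Mup3, Mup17 and Mup18 hold TATAAG where that of Mup6 holds TATAAA. A further 30 higher genes with less signal in liver than in the SiO2 spleen, chosen after their values were seen, had 21 windows. Of these, 4 held the GATA motif, 3 the TATA box, 1 the CACCC box and 0 the other motifs. With 73.3%, 70.0% and 70.0% of the genes covered, a comparison over any of the sets is void and none is made. Among all 27025 windows 10.3% held the GATA motif, 12.97% the TATA box, 1.22% the HNF4 motif, 0.170% the C/EBP motif and 3.19% the CACCC box. The windows of Kel, Rhd, Btnl10 and Trim10 below were chosen for their GATA motifs, and that of Mup6 for its TATA box close to the start. Capitals mark the matches, which are printed as their reverse complement where the motif is on the other strand.
Kel (chr6:41704326-41704575, minus strand): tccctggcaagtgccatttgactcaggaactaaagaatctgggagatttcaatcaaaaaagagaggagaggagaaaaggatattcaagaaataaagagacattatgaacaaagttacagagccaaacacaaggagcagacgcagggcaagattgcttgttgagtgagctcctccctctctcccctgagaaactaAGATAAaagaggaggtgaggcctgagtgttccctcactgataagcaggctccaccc
Rhd (chr4:134864286-134864535, plus strand): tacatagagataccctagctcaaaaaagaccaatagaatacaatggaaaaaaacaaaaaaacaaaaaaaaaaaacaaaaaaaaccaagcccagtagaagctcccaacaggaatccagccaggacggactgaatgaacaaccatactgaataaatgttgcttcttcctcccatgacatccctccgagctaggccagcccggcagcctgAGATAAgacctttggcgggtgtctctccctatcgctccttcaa
Btnl10 (chr11:58917658-58917907, plus strand): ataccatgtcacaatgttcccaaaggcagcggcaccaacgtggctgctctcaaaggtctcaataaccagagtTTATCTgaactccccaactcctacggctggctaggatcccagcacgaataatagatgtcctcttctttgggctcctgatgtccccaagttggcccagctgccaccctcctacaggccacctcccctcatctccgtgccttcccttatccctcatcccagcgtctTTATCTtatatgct
Trim10 (chr17:36869324-36869573, plus strand): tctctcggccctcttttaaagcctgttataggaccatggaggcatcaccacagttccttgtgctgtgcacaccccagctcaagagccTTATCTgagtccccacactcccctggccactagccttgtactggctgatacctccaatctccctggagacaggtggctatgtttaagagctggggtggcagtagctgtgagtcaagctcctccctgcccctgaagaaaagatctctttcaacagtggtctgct
Mup6 (chr4:60003231-60003480, plus strand): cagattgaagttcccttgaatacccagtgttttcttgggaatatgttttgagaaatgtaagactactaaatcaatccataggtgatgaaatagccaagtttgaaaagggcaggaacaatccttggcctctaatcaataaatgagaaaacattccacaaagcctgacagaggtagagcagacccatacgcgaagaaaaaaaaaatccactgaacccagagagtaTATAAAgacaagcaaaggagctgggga
In Kel and Rhd the match is on the printed strand and begins 56 and 43 bases before the start. In Btnl10 there are 2 matches on the other strand, from 178 and 14 bases before the start, and in Trim10 there is 1, from 163 bases before it. In Mup6, at 12.5, 6230.2 and 18465 (8.96 ± 0.31), the TATA box begins 27 bases before the start. A match is a run of letters, and binding was not measured.

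Some genes of granulocytes also had low liver signal. Among eosinophil, basophil and mast cell genes 2 of 22 were higher, the eosinophil granule genes Epx at 41.1, 170.2 and 23.6 (2.05 ± 0.21) and Prg2 at 432, 1226 and 115 (1.50 ± 0.20). The list had 0 lower members and a median of 0.07, and Il5ra read 784, 455 and 289 (-0.79 ± 0.20). Mrgprb2 and Il13 were well above background in the SiO2 spleen but not with 3TF-3C, and Mrgprb1 the other way round. Of the 5 neutrophil markers 1 was higher, the iron-binding lactoferrin Ltf, at 3179, 8724 and 1271 (1.46 ± 0.20). The others lay between -0.12 (S100a9) and 0.77 (Ngp), and the markers together read 71174, 79515 and 40254. Outside these lists, the genes that follow were picked after their values were seen. Ctse, an aspartic protease, read 1463, 4427 and 386 (1.60 ± 0.20). Asns, the enzyme that makes asparagine, read 726, 2096 and 295 (1.53 ± 0.20), and Mki67, the proliferation marker, 4119, 9438 and 1319.8 (1.20 ± 0.20, 0.88 by its other probe).

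Of the 200 lower genes 59 and 86 lay in the classes from 20 to 50 and from 50 to 200 in the SiO2 spleen. The 20 lowest differences ran from -3.01 to -1.64. Olfr1500, an odorant receptor, read 588, 72.8 and 20.1 (-3.01 ± 0.21), and Cts7, a placental cathepsin, 68.6, 8.51 and 2.78 (-3.01 ± 0.35). Srp54b, a copy of the signal recognition particle gene, read 1175, 189.9 and 82 (-2.63 ± 0.20). Fmr1nb, known from testis, read 1915, 304 and 125 (-2.66 ± 0.20), but its other probe gave -0.0034, and Tcl1b4 read 63.1, 9.65 and 31.7 (-2.71 ± 0.35), with -0.02 by its other probes. The muscle myosin genes Myl1 and Myh1 read 109, 29.8 and 38.6 (-1.86 ± 0.22) and 88.5, 24.8 and 35.7 (-1.84 ± 0.23). Of the skeletal muscle markers measured on both spleen arrays, 0 passed 2-fold (median -0.30). The remaining marker, Myh4, was well above background in the SiO2 spleen but not with 3TF-3C, and was at least 4.17-fold lower. Cdkn1c, an imprinted brake on the cell cycle, read 1989.9, 628 and 739 (-1.66 ± 0.20).

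Among the bright genes the lowest was Rps3, a ribosomal protein, at 6902, 2328 and 4208 (-1.57 ± 0.20), and its other probe gave -0.16. Sox5, a transcription factor, read 26297, 9627 and 20408 (-1.45 ± 0.20), with -0.22 by its other probe. Cplx2, a complexin that acts in vesicle fusion, read 22718, 8919 and 18981 (-1.35 ± 0.20), and its 3 other probes ranged from -1.60 to -0.42 with a median of -1.38. Mdk, the growth factor midkine, read 4328, 1656 and 1129 (-1.39 ± 0.20), with -0.38 by its other probe, and Slc28a2, a nucleoside carrier, 4345, 1666 and 1131 (-1.38 ± 0.20). The probes of these last genes gave nearly the same readings on each array, and whether one binds the other's RNA was not tested, so they may not be separate lower genes.

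Of the 5 B cell and 5 T cell markers 0 passed 2-fold, and single other lymphocyte genes lay near 2-fold lower. H2-Ob, a B cell regulator of antigen loading, read 9261, 4455 and 2698 (-1.06 ± 0.20, -0.51 by its other probe), and Cd72, a B cell surface inhibitor, 2688, 1324 and 632 (-1.02 ± 0.20). Rasgrp1, which activates Ras after T cell receptor signals, fell just short of 2-fold at 6036, 3061 and 2177 (-0.98 ± 0.20), and Lef1, a T cell transcription factor, read 567, 268 and 166 (-1.08 ± 0.20). The 34 lymphocyte transcription factors had a median of -0.40, and Lef1 was the 1 member at least 2-fold lower. Among 25 natural killer and cytotoxic genes 0 passed 2-fold (median -0.39), and Fc receptor and paired receptor genes 0 of 34 higher and 1 lower, Clec4a2 at 424, 148 and 89.7 (-1.51 ± 0.20). These medians lie below that of all genes (-0.17), and the sums of the B and T cell markers, given above, were also lower with 3TF-3C.

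Some genes with a large signal in liver were not past 2-fold in the SiO2-3TF-3C spleen. These were picked after their values were seen, from genes at least 16-fold higher on the liver array than in the SiO2 spleen. Mfsd2a, a lipid carrier, read 79.6, 92.7 and 1670.3, a spleen difference of 0.22 ± 0.21. Fst, the activin antagonist follistatin, read 31.2, 40.9 and 540.2 (0.39 ± 0.23). Me1, the malic enzyme that supplies NADPH for fat synthesis, read 308, 528 and 6193 (0.78 ± 0.20), but 1.78 by its other probes, and Cyp3a13 read 126, 229 and 2224 (0.86 ± 0.21) although 4 other Cyp3a genes formed a run past 2-fold. Slc46a1, the folate carrier, read 160.3, 304 and 3526 (0.92 ± 0.21, 0.84 by its other probe). Of the 5 Kupffer cell markers, which were chosen apart from this liver threshold, 2 were higher. Clec4f at 9.55, 804 and 5986 (6.39 ± 0.34) and Vsig4 at 24, 412 and 3169 (4.10 ± 0.23) were these, while Cd5l at 5463, 6386 and 10594 (0.23 ± 0.20) and Timd4 at 1640.4, 1288 and 1032 (-0.35 ± 0.20) were not, and these last are also made by spleen macrophages.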

How the data were processed

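RNA of 2 pooled spleen groups and of liver was hybridised to 1-colour Agilent arrays (Cy3). Per the labels' protocols, RNA was extracted with a blood RNA kit that includes a globin depletion step. The deposited scanner files hold the linear fluorescence intensity of each spot, extracted with Feature Extraction 11.0.1.1 per the file headers (9.1 per the submitters' processing notes), design 026655, build mm9. The authors' deposited series table holds log2 values for 26049 probes, with a normalization and filter that are not given in the sources used here.

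Processed signals (background-subtracted by the scanner software) of non-control spots were taken to log2, without spots marked non-uniform or population outlier (182, 283 and 469 of 43020 on the SiO2 spleen, SiO2-3TF-3C spleen and liver arrays), averaged per probe, and lowered by each array's 75th percentile, an intensity of 636, 580.3 and 426. Of 39112 probes 27032 (69.1%) were named through RefSeq accessions on GRCm38.p6, used for names and neighbours only. A gene was represented by its brightest probe over the 3 arrays and had to be well above background on both spleen arrays. Each group has 1 array, which limits the precision of every value, and no test was made. Genes were named by a fixed rule: the 20 highest and lowest differences, the 15 highest and lowest among genes above the 75th percentile on both spleen arrays, the 15 highest with liver below the SiO2 spleen, up to 5 members per list and those past 2-fold, the 8 highest bounds each way, and the cell type markers. The comparison, its members, the lists and the rule were chosen with earlier results of these data known. A few genes that the rule names are not reported here. Genes named outside the rule are said to be chosen after their values were seen. The self-test on simulated data was run before the analysis.

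Alternatives were a normexp correction of the background, offset 50 (limma 3.58.1, R 4.3.3), quantile normalization, scaling to the median, the authors' deposited values, the mean over probes, no filter and a stricter filter on dim genes, and keeping the marked spots. Normexp was run on the median spot signal and median local background, since the files used hold no mean signal. The other steps used Python 3.11.15 with pandas 2.3.3.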

Additional observations from a re-analysis of the deposited data

How the results depend on the processing

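No paired analysis was possible because each group has 1 array. The 698 genes at least 2-fold higher became 1160 with no filter on dim genes, of 20542 genes, and 318 of the 11686 genes above the array median on both spleen arrays. They numbered 477 with normexp background correction and 477 of the 11095 genes in the authors' deposited values. The 200 lower genes moved more: 38 with normexp, 575 with no filter, 58 above the array median and 109 in the authors' deposited values. Fewer genes could be counted under the stricter filter and in the authors' table, and the normexp alternative changed the signal column and added an offset at once, so that the part of each was not tested. Both counts lay within 1.5 times the main value under quantile normalization, median scaling, the mean over probes and kept spots, and also without genes whose other probes differed by over 1 on the log2 scale (636 and 187), an alternative chosen after seeing the data. The median of all genes was -0.06 with normexp, against -0.17. The medians of 18 of the 65 lists changed sign under at least 1 alternative, most of them close to 0. Those further from 0 than the median technical error (0.20) were the medians of aquaporins (0.056 with normexp and 0.35 with the mean over probes, against -0.23) and of pluripotency genes (0.045 in the authors' deposited values, against -0.22). Of the 272 genes past 2-fold that the rule named or that were picked after their values were seen, 193 also did with normexp and 252 with the mean over probes, and none of the 272 changed sign under an alternative that gave it a value. Genes not well above background have only a bound, and the arrays show nothing of differences between animals.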

Other observations

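Of the parts of telomerase, a pair picked after the values were seen, the RNA passed 2-fold downwards and the enzyme fell just short of it. Terc, the RNA template, had scaled intensities of 137.9, 52.2 and 43.6 in the SiO2 spleen, with 3TF-3C and in liver (log2 difference -1.40 ± 0.21), and Tert, the enzyme, 1442, 733 and 1136 (-0.98 ± 0.20). Neither gene had another measured probe.

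Proteoglycans and glycoproteins of the matrix had 4 of 45 members at least 2-fold higher, 0 lower and a median of -0.17, the same as that of all genes. The syndecans Sdc1 and Sdc2, which carry heparan sulphate at the cell surface, differed by 1.64 ± 0.21 and 1.38 ± 0.20 and were higher still in liver. The matricellular genes Spp1 (osteopontin) and Thbs4 (thrombospondin 4) passed 2-fold, Spp1 at 1.42 ± 0.20 and Thbs4 just past it. Thbs4 had intensities of 445, 891 and 135, and so less signal in liver than in either spleen. Among tetraspanins 3 of 25 were higher. Tspan12 read 364, 1001 and 9258, with its highest signal in liver, whereas Tspan8 read 85.1, 325 and 62.7 and Tspan33 2708, 6533 and 2666. Among scavenger and lipoprotein receptors, Asgr1 and Asgr2, which together form the hepatocyte receptor that clears desialylated glycoproteins, differed by 5.41 ± 0.21 and 3.90 ± 0.21.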
